A study of Mus musculus with 44 samples.

Results

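The 10 genes described here are widely used to recognise leukocytes and macrophages, and were followed through 44 single cells. They are Ptprc, Adgre1, Csf1r, Itgam, Itgb2, Cd68, Cd14, Aif1, Cd52 and Cd53, taken as a named set of 10 out of the 3613 genes of the deposited table, and each of the 10 was found there. The cells came from calvarial cultures of newborn C57BL/6J mice, 100000 cells per culture, kept for 16 h. Of these, 20 cells, called with-MK cells here, were labelled as cultured with 50000 megakaryocytes and were all processed on plate 7. The other 24, called without-MK cells, were labelled as cultured without megakaryocytes and were all processed on plate 3. From both cultures, cells were sorted as positive for the proteins CD45 and F4/80 and negative for CD41, and were named primary osteomacs, the macrophages of bone surfaces. A Fluidigm C1 chip separated the cells before SMART-Seq cDNA synthesis and sequencing.

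The labels tie no cell to a culture or an animal, so each treatment is 1 sample and the cells of a plate are not replicates of a condition. Treatment and plate cannot be told apart. Differences between the plates therefore have no test, and coefficients of variation are spreads between cells. The titles of the without-MK cells also carry the culture name with megakaryocytes in it, against their treatment field. Depth ran from 69181 to 1212604 library reads in with-MK cells (median 834834), against 270537 to 714465 in without-MK cells (median 527930). With-MK cells 11 and 16 were far shallower than the rest, with 69181 and 71585 reads. The without-MK cells went against their label as macrophages: the 8 listed genes of a stromal list, among them Sparc, Bgn and Lox, summed to 3.88 to 195.6 CPM (reads per 1e+06 library reads) in with-MK cells, against 4280 to 98723 CPM in without-MK cells. Among the 10 genes described here, Ptprc, Aif1 and Cd52 were at 1, 0 and 0 reads over all without-MK cells. Adgre1, Itgam and Cd53 were at 1, 2 and 5 reads. Not all genes of the set were so low: Cd68, Itgb2, Cd14 and Csf1r had reads in 13, 15, 10 and 5 of the 24 without-MK cells. Results on variation within plate 7 do not use those cells.

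The 10 genes encode proteins of different kinds. Ptprc encodes CD45, the tyrosine phosphatase present on nucleated blood cells, and Adgre1 encodes F4/80, an adhesion G protein-coupled receptor of mouse macrophages. Csf1r encodes the receptor for the growth factors on which macrophages depend. Itgam and Itgb2 encode CD11b and CD18, the chains of the integrin Mac-1, which binds complement fragments and endothelial ligands. Cd68 encodes a heavily glycosylated protein that lies mostly in endosomes and lysosomes, and Cd14 the coreceptor that hands lipopolysaccharide to Toll-like receptors. Aif1 encodes IBA1, a calcium-binding protein of the actin cortex, so its product is not on the surface. Cd52 encodes a short glycopeptide held by a lipid anchor, and Cd53 a tetraspanin of leukocytes. Ptprc and Adgre1 encode the proteins on which the cells were sorted.

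In the GENCODE M21 annotation of GRCm38 all 10 are protein-coding genes. Ptprc lies on chromosome 1 from 138062861 to 138175708 on the minus strand, and Adgre1 on chromosome 17 from 57358691 to 57483527 on the plus strand. Itgam lies on chromosome 7 from 128062640 to 128118491 and Itgb2 on chromosome 10 from 77530252 to 77565708, both on the plus strand. Cd68 lies on chromosome 11 from 69664213 to 69666153, Aif1 on chromosome 17 from 35170991 to 35176068, Cd52 on chromosome 4 from 134082448 to 134095082 and Cd53 on chromosome 3 from 106759921 to 106790149, all on the minus strand. Csf1r and Cd14 are on chromosome 18.

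Cd53 and Csf1r were the only genes of the set at 10 CPM or more in every with-MK cell, and the other 8 fell under 10 CPM in 1 to 8 of the 20 with-MK cells. By the presence of at least 1 read, 5 of the 10 genes were found in every with-MK cell: Ptprc, Csf1r, Itgb2, Cd68 and Cd53. Among all 3613 listed genes 8.69% were, and among the 1328 genes with a pooled level of at least 100 CPM in with-MK cells, which include all 10, 21.6% were. The median over those 1328 genes was 17 of the 20 with-MK cells with reads. Adgre1 and Aif1 were also read in 17, Cd14 in 18, and Itgam and Cd52 in 19. The pooled level is the sum of a gene's reads over the cells divided by the sum of library reads. With a level of at least 10 CPM required in every with-MK cell, 2 of the 10 genes remained, Csf1r and Cd53, against 12.7% of those 1328 genes. Ptprc, Itgb2 and Cd68 left the uniform group because single cells held only 1 to 7 reads of them. Of the 200 values in with-MK cells, 175 were at 10 CPM or more, 15 were above 0 but under 10 CPM, with 1 to 7 reads each, and 10 were at 0. The 175 include low counts from the 2 shallow cells, 11 and 16, where 10 CPM asks for no more than 1 read. In cell 16, Cd68 and Aif1 stood at 14.0 CPM from 1 read each, and in cell 11 Adgre1 stood at 57.8 CPM from 4 reads. In the without-MK cells, 40 of 240 values were above 0 but under 10 CPM, with 1 to 4 reads each, so counts of this size were found on both plates.

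**Figure D1:**
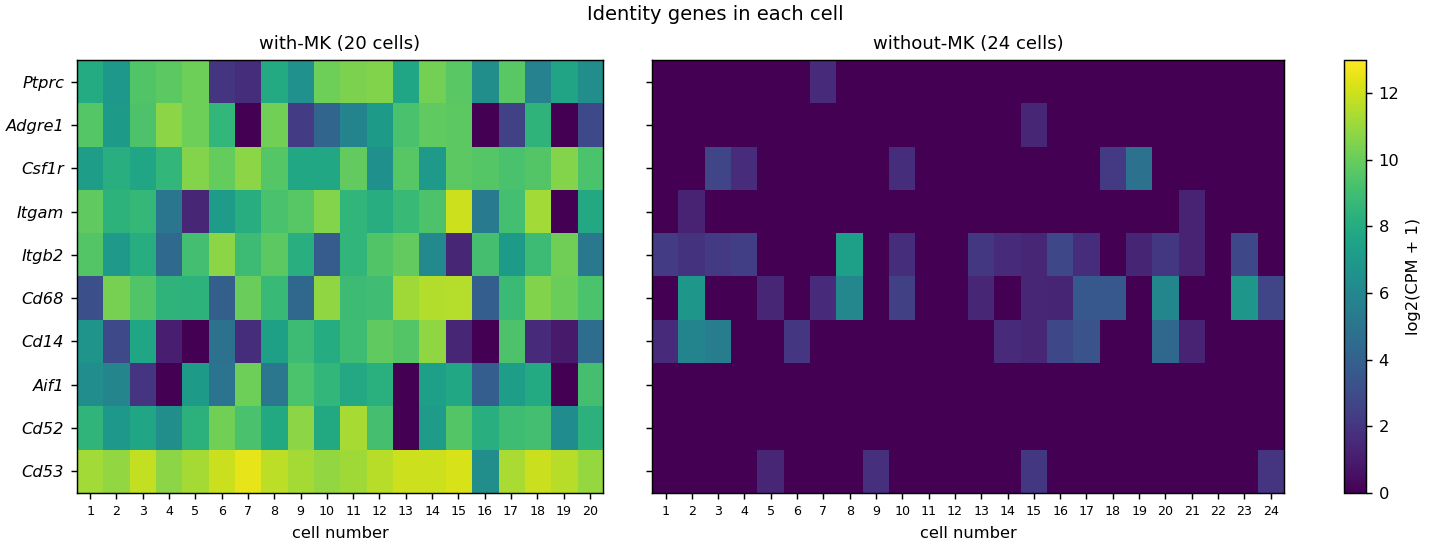
Level of the 10 identity genes, as log2(CPM + 1), in each of the 20 with-MK cells and each of the 24 without-MK cells; columns are cells and rows are genes. The Cd53 row is bright in all with-MK cells except cell 16, the Csf1r row has no with-MK cell under 91.7 CPM, the other 8 rows each have a with-MK cell under 10 CPM, and the without-MK panel is dark except for scattered values of Itgb2, Cd68, Cd14 and Csf1r.

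Cd53 was the most even of the 10 genes. In with-MK cells it had 83.8 CPM at the lowest, a median of 2824 and 5935 at the highest, and in without-MK cells 0, 0 and 3.26 CPM. The groups did not overlap. The lowest with-MK value was that of the shallow cell 16, with 6 reads, and the other 19 with-MK cells lay at 1738 CPM or more. Its coefficient of variation, the SD over the mean, was 0.436 over the 20 with-MK cells and 0.362 without the 2 shallow cells. The median over the 1328 genes was 1.29, and 0.602% of them had a lower coefficient than Cd53. Over the 10 genes of the set the median was 1.06. The sums were 48380 reads in with-MK cells and 5 reads in without-MK cells, which came from 4 cells with 1 or 2 reads each. The pooled levels were 3093.5 CPM in with-MK cells and 0.403 CPM in without-MK cells, a ratio of 7681 with an exact binomial 95% interval of 3291 to 23658. Such intervals, and the Poisson intervals below, cover counting error of reads only. Reads were not tagged by molecule, so they cannot be taken as independent. A Clopper-Pearson interval for a share of cells, used below, counts the cells of 1 plate as separate draws and gives no range for other cultures.

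Csf1r was the other gene above 10 CPM in all with-MK cells. It had 91.7 CPM at the lowest, a median of 679 and 1692 at the highest in with-MK cells, and 0, 0 and 29.0 CPM in without-MK cells. The groups did not overlap. Its coefficient of variation was 0.725, with 11.1% of the 1328 genes below it. The shallow cell 16, which was low for Cd53, had 754 CPM of Csf1r from 54 reads, above the group median. Among without-MK cells 5 had reads, and cell 19 held 19 of the 25. The pooled levels were 679.7 CPM in with-MK cells and 2.01 CPM in without-MK cells, a ratio of 338 (229 to 522). The log2 ratio of 8.40 became 10.22 when the top cell of each group was left out.

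Promoter sequence could be set beside these patterns for 5 of the 10 genes, the ones found in the RefSeq promoter table of GRCm38.p6, Ptprc, Itgam, Cd68, Aif1 and Cd53. They are shown because the genes were higher together in with-MK cells yet differed in their spread among those cells. The coefficient of variation ran from 0.436 for Cd53 to 1.40 for Itgam, which had 58.1% of the 1328 genes below it. PU.1, encoded by Spi1, is a transcription factor of myeloid cells that binds sequences with a GGAA core. The motif GAGGAA was searched on both strands (TTCCTC on the gene strand marks the other strand) in the 250 bases before each start. It was found in 5 of 6 windows of the set, in which Ptprc has 2 overlapping windows and only 1 of them holds it, and in 23.3% of the 32851 windows in the table. Spi1 itself had 564 reads, in 17 of 20 with-MK cells, against 0 reads in the 24 without-MK cells. The windows of the 3 genes that lie wholly before the annotated gene follow, read 5′ to 3′ on the gene's strand and ending at the base before the start, with the motif in capitals. The match lies at bases -39 to -34 from the start in Cd53, at -84 to -79 and, on the other strand, -15 to -10 in Itgam, and at -225 to -220 in Cd68.
Cd53 (chr3:106790150-106790399, minus strand): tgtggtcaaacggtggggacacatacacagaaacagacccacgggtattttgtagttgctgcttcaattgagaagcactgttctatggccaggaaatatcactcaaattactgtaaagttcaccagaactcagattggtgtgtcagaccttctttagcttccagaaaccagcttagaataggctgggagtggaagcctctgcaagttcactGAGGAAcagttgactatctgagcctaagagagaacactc
Itgam (chr7:128062390-128062639, plus strand): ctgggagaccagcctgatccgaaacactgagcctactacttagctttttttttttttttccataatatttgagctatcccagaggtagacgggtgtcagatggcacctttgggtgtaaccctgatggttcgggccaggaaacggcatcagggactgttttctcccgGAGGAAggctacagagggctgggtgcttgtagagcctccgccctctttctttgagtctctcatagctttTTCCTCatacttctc
Cd68 (chr11:69666171-69666420, minus strand): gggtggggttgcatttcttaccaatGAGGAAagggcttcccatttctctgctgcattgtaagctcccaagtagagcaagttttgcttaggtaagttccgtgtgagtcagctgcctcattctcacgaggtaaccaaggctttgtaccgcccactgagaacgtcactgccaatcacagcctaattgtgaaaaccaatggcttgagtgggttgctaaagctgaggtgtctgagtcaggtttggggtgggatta
A match describes the letters only, and binding was not measured.

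The phosphatase gene Ptprc was read in all with-MK cells, over a wide range. Its coefficient of variation was 0.949, with 24.7% of the 1328 genes below it. It had 2.29 CPM at the lowest, a median of 249.7 and 1479 at the highest in with-MK cells, and 0, 0 and 1.99 CPM in without-MK cells. The groups did not overlap, although by a margin of less than 1 CPM. With-MK cells 6 and 7 had 2 reads each, and the next, cell 18, had 27 reads or 53.1 CPM. Summed reads were 8206 (exact Poisson 95% interval 8029 to 8386) in with-MK cells and 1 read (0.0253 to 5.57) in without-MK cells. The ratio of the pooled levels was 6514 (1169 to 257338), a log2 ratio of 12.67. It rests on the 1 read in without-MK cell 7. Without the top cell of each group no read was left in without-MK cells, and the log2 ratio against the floor of 3 reads was 10.88. With each cell thinned to 310000 reads, Ptprc was read in 17 of 18 with-MK cells, against 1 of 22 without-MK cells.

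Adgre1, which encodes the other sort marker, dropped out in more cells than Ptprc. It had reads in as many with-MK cells as the median of the 1328 genes. It had 0 CPM at the lowest, a median of 240.4 and 1699 at the highest in with-MK cells, and 0, 0 and 1.63 CPM in without-MK cells. The groups overlapped at 0 only. With-MK cells 7, 16 and 19 had no read, and cells 9, 17 and 20 had 4, 4 and 5 reads, so 14 of 20 cells stood at 10 CPM or more. At the group's median level, cells 7 and 19 would have held 209.9 and 265 reads, but cell 16 only 17.2. For cell 16 the 3 reads that a count of 0 allows correspond to 41.9 CPM, against 3.44 and 2.72 CPM in cells 7 and 19. Adgre1 was read in 17 of 20 with-MK cells (85.0%, exact Clopper-Pearson 95% interval 62.1 to 96.8%), against 1 of 24 without-MK cells (4.17%, 0.105 to 21.1%). The log2 ratio of the pooled levels, 12.59, likewise rests on the 1 read in without-MK cell 15. Without the top cell of each group it was 10.72 against the floor of 3 reads. Ptprc and Adgre1 were both at 10 CPM or more in 13 of the 20 with-MK cells, Ptprc alone in 5, Adgre1 alone in 1, cell 6, and neither in 1, cell 7.

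Cell 7 was low for both sort markers and high for other genes of the set. It had 2 reads of Ptprc and none of Adgre1, in 873123 library reads. The same cell had the highest Cd53 (5935 CPM), Csf1r (1692 CPM) and Aif1 (1103 CPM) of all cells. Its 8 stromal genes summed to 13.7 CPM, within the range of the other with-MK cells. Its Pf4, the 1 listed gene of the megakaryocyte and platelet list, stood at 8749 CPM, the highest of all cells, where the with-MK median was 183 CPM. The part of that signal in the levels of cell 7 was not tested.

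**Figure D2:**
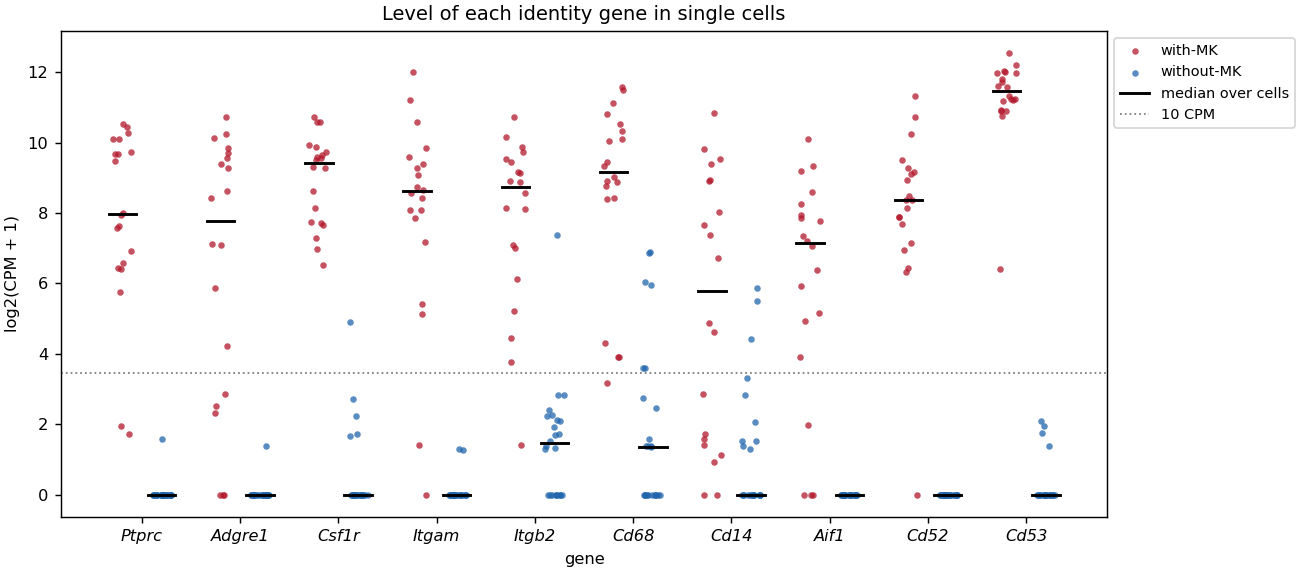
Level of each identity gene, as log2(CPM + 1), with 1 point per cell: with-MK cells (n = 20) left and without-MK cells (n = 24) right for each gene, the bar is the median over cells and the dotted line marks 10 CPM. Csf1r and Cd53 have no with-MK point under the line, Cd14 has 8 and Adgre1 has 6.

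The integrin chains did not follow each other from cell to cell. Itgam had 0 CPM at the lowest, a median of 390.3 and 4131 at the highest in with-MK cells, and 0, 0 and 1.43 CPM in without-MK cells. With-MK cell 19 had no read and cell 5 had 2, where the group's median level would have given cell 19 431 reads. Cells 15 and 18 were highest, and cell 15 held 25.1% of the group's Itgam reads. Itgb2 had 1.66 CPM at the lowest, a median of 425 and 1704 at the highest in with-MK cells, and 0, 1.77 and 163.6 CPM in without-MK cells. Its lowest with-MK cell was cell 15, with 1 read of Itgb2, the same cell that had 2495 reads of its partner Itgam. In turn cell 19, with no Itgam read, had 1149 CPM of Itgb2. Both chains were at 10 CPM or more in 17 of 20 with-MK cells, and no cell lacked both. The Spearman correlation of the 2 chains over the 20 with-MK cells was -0.34. The points share a plate and differ in depth, and the value is a description of these cells.

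Between the plates the chains differed in overlap. Itgam had 9959 reads in with-MK cells, against 2 in without-MK cells, a ratio of 3953 (1094 to 32646), and only with-MK cell 19 lay within the range of the without-MK cells. Itgb2 had a pooled level of 482 CPM in with-MK cells, against 10.1 CPM in without-MK cells, a ratio of 47.9 (40.1 to 57.6). The Itgb2 groups overlapped, since 7 of 20 with-MK cells lay at or under the highest without-MK cell. Of the 24 without-MK cells 15 had an Itgb2 read, but cell 8 alone held 101 reads, 80.8% of the sum, and no other without-MK cell had more than 4. The log2 ratio of 5.58 became 7.73 when the top cell of each group was left out.

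Cd68 and Cd14 overlapped between the plates as well. Cd68 had 7.98 CPM at the lowest, a median of 579.7 and 3037 at the highest in with-MK cells, and 0, 1.56 and 117.6 CPM in without-MK cells. With-MK cells 1, 6, 9 and 16 lay at 7.98 to 19.0 CPM, inside the range of the without-MK cells, and the other 16 with-MK cells lay above it. In cells 1, 6 and 9 this rested on 7, 10 and 19 reads in deep libraries, while cell 16 had 1 read in a shallow one. The pooled levels were 942 CPM in with-MK cells and 17.3 CPM in without-MK cells, a ratio of 54.4 (47.5 to 62.5).

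Cd14 had the highest coefficient of variation of the 10 genes. It had 0 CPM at the lowest, a median of 66.0 and 1816 at the highest in with-MK cells, and 0, 0 and 57.4 CPM in without-MK cells. With-MK cells 5 and 16 had no read, cells 4, 15, 18 and 19 had 1 read each, cell 7 had 2 and cell 2 had 6. The remaining 12 cells ran from 23.7 to 1816 CPM, with no cell between 6.27 and 23.7 CPM. The coefficient was 1.56, with 67.8% of the 1328 genes below it. Of the with-MK cells, 10 lay above every without-MK cell. The log2 ratio of the pooled levels was 5.32, the smallest of the set, from 4539 reads in with-MK cells, against 90 in without-MK cells.

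Aif1 and Cd52 had no read in any of the 24 without-MK cells, which allows a share of up to 14.2% of such cells with a read at the Clopper-Pearson upper bound. That limits cells with a read on this plate, not cells that express the gene. Aif1 had 0 CPM at the lowest, a median of 140.4 and 1103 at the highest in with-MK cells. With-MK cells 4, 13 and 19 had no read and cell 3 had 3, where the group's median level would have given cells 4, 13 and 19 120.2, 114 and 155 reads. Its pooled level was at least 923-fold higher in with-MK cells, taken against a floor of 3 reads over the without-MK cells. Cd52 had 0 CPM at the lowest, a median of 329 and 2544 at the highest in with-MK cells. With-MK cell 13 had no read of it, where the median level would have given 268 reads, and the other 19 cells lay at 79.7 CPM or more. Its pooled level was at least 1820-fold higher in with-MK cells against the same floor. Cell 13, which lacked both Aif1 and Cd52, had 4099 CPM of Cd53, 2231 CPM of Cd68 and 746 CPM of Cd14.

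As a set, all 10 genes had a pooled level at least 10-fold higher in with-MK cells, where 9.81% of the 3588 genes with any read did. The median log2 ratio of the set was 10.34, and that of all 3588 genes was -0.12. With-MK and without-MK cells did not overlap for 3 of the 10 genes, Ptprc, Csf1r and Cd53, against 0.446% of the 3588. Thinned to 310000 reads per cell 2 genes had no overlap, since 1 with-MK cell then had no Ptprc read, and with the listed reads as the total there were also 2. Reads in at most 1 of the 24 without-MK cells were found for 4 of the 10, Ptprc, Adgre1, Aif1 and Cd52, against 5.91% of the 3588. The set was named with this contrast known, and without-MK cells carried the stromal transcripts given above, so a difference in cell type and an effect of megakaryocytes cannot be told apart.

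Levels can be set between genes only per length. With CPM divided by the length in kilobases of the longest principal transcript in GENCODE M21 (GRCm38), the median over the 20 with-MK cells was 1621 for Cd53, 640.1 for Cd52, 471 for Cd68, 160.4 for Aif1, 144.5 for Csf1r, 143.003 for Itgb2, 83.9 for Itgam, 74.3 for Adgre1, 53.1 for Ptprc and 40.2 for Cd14. Cd53 was above Cd52, the next in that order, in 16 of 20 cells. Below that, each gene was above the next in only 10 to 14 of 20 cells, and the ranges of all neighbours overlapped. Within single with-MK cells, Cd53 was highest per kilobase in 15, Cd52 in 4 and Cd68 in 1.

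Most with-MK cells had at least 1 read of every gene of the set, but few held all of them at 10 CPM or more. All 10 genes had reads in 14 of 20 with-MK cells, 9 genes in 3 cells, 8 in 2 and 7 in 1, cell 19. At 10 CPM or more, 5 with-MK cells, numbers 8, 10, 11, 12 and 14, held all 10 genes, 8 cells held 9, 5 cells held 8, cell 7 held 7 and cell 19 held 6. Among these, the shallow cell 16 held 8 genes at 10 CPM or more, but only 6 with at least 3 reads. The shallow cell 11 held all 10 by both limits. The 15 incomplete cells did not share 1 gap. Adgre1 alone was under 10 CPM in cells 9, 17 and 20, Cd14 alone in cells 2 and 18, and the other 10 cells each had a combination of their own, such as Aif1 with Cd52 in cell 13 or Itgb2 with Cd14 in cell 15. Every with-MK cell kept at least 6 of the 10 genes at 10 CPM or more. Cell 19 lacked Adgre1, Itgam, Cd14 and Aif1 at that level, although it was one of the deepest, with 1103554 reads, and it had 3137 CPM of Cd53, 1530.5 CPM of Csf1r and 1096 CPM of Cd68. The summed level of the set ran from 1844 CPM in the shallow cell 16, through a median of 7496, to 15322 CPM in cell 15. Cell 16 also had 245233 CPM of the nuclear RNA Malat1, the highest of the with-MK cells, and its part in that cell's low sum was not tested.

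The without-MK cells carried few genes of the set. The median without-MK cell had reads of 2 of the 10 genes, and the range was 0 to 5. At 10 CPM or more, 16 of 24 had none of the genes, 5 had 1 and 3 had 2. Only Cd68, Cd14, Itgb2 and Csf1r reached that level. Cd68 did so in cells 2, 8, 17, 18, 20 and 23, Cd14 in cells 2, 3 and 20, Itgb2 in cell 8 and Csf1r in cell 19. Cells 2 and 20 thus combined Cd68 with Cd14, at 117.6 and 57.4 CPM in cell 2 and 60.7 and 20.2 CPM in cell 20, and cell 8 combined 64.8 CPM of Cd68 with 163.6 CPM of Itgb2. None of these 8 cells had a read of Ptprc, Adgre1, Aif1, Cd52 or Cd53 (their counting limit of 3 reads is at most 11.1 CPM), and their stromal genes summed to 4280 to 23947 CPM. The summed level of the set had a median of 7.50 CPM and a highest value of 228 CPM in without-MK cells, under the lowest with-MK cell at 1844 CPM.

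**Figure D3:**
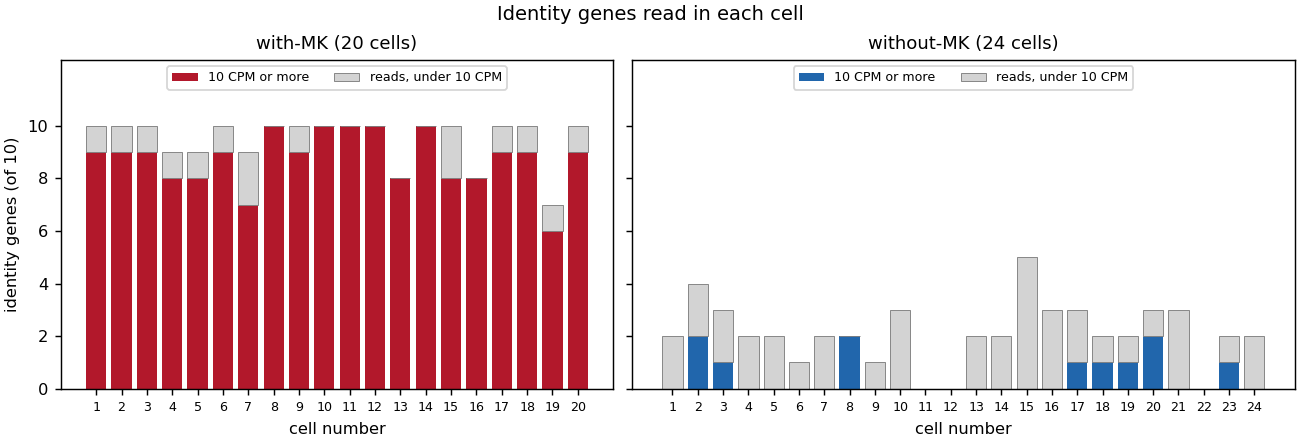
Number of the 10 identity genes in each cell, with-MK cells left and without-MK cells right: the coloured part of a bar counts genes at 10 CPM or more and the grey part genes with reads but under 10 CPM. With-MK cells hold 6 to 10 genes at 10 CPM or more, and without-MK cells hold 0 to 2.

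Within plate 7 the levels of the genes were only loosely related. Over the 45 pairs, the Spearman correlation across the 20 with-MK cells had a median of 0.09, from -0.53 to 0.67, and 26 pairs were above 0. The points share a plate and a gate, and 2 of them are shallow. Without those 2 cells the median was 0.03 and again 26 pairs were above 0. The highest pair was Aif1 with Cd52 (0.67, and 0.67 without the shallow cells). Cells 4, 13 and 19, with no Aif1 read, had the 3 lowest values of Cd52, at 85.2, 0 and 79.7 CPM. The lowest pair was Csf1r with Cd14 (-0.53, and -0.65 without the shallow cells). Csf1r was lowest in cell 12, at 91.7 CPM, where Cd14 was at 893 CPM, and highest in cell 7, at 1692 CPM, where Cd14 had 2 reads. Cells 11 and 13 were high for both, with 939.6 and 794 CPM of Csf1r and 491 and 746 CPM of Cd14. The sort markers Ptprc and Adgre1 had a correlation of 0.44. Spearman correlations with library reads ran from -0.42 for Cd52 to 0.14 for Itgb2, and those with the number of listed genes read in the cell from -0.49 for Cd52 to 0.40 for Ptprc.

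**Figure D4:**
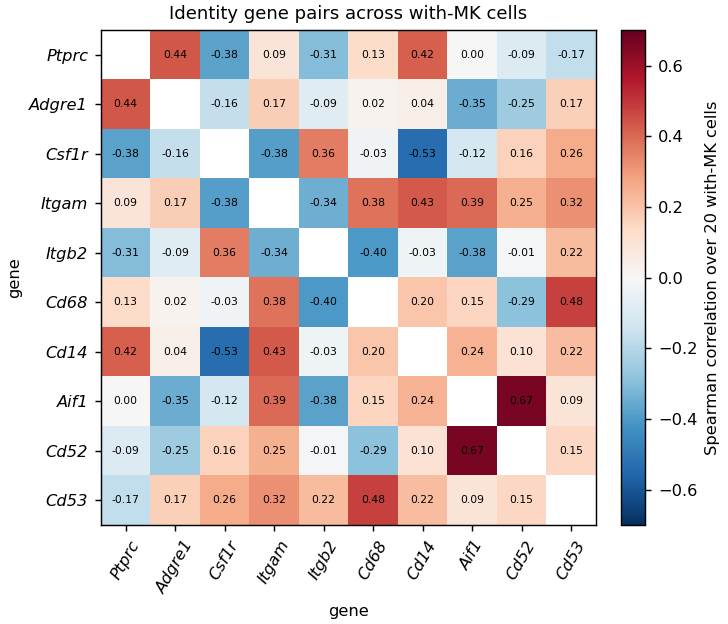
Spearman correlation of CPM between each pair of identity genes over the 20 with-MK cells; red is positive, blue is negative and the number in each field is the correlation. Aif1 with Cd52 (0.67) and Csf1r with Cd14 (-0.53) are the extremes of the 45 pairs.

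Among the other genes of the table, Ccl3 was the gene most like Cd14. Each gene of the set was compared with 1328 other genes that had reads in at least 15 of the 20 with-MK cells, by the Spearman correlation of CPM over those cells. Ccl3, which encodes an inflammatory chemokine, had a correlation of 0.90 with Cd14, and 0.89 without the shallow cells. The next for Cd14 were Tax1bp1 and Zbtb11, both at 0.64, and the median over all genes ranked was 0.07. The 6 cells with the most Cd14, numbers 9, 11, 12, 13, 14 and 17, had 477 to 1816 CPM of it, and 1214 to 2743 CPM of Ccl3, also the 6 highest values of that gene. The 8 cells with at most 6 Cd14 reads were mixed for Ccl3. Among the 4 with 1 Cd14 read, cells 4, 15, 18 and 19 had 158.8, 36.4, 1.97 and 0 CPM of Ccl3. Cells 5 and 16, with no Cd14 read, had 370.3 and 14.0 CPM of Ccl3, and cells 7 and 2, with 2 and 6 Cd14 reads, had 303.5 and 458 CPM. The pooled level of Ccl3 was 884 CPM in with-MK cells (13818 reads), against 0.242 CPM in without-MK cells (3 reads).

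**Figure D5:**
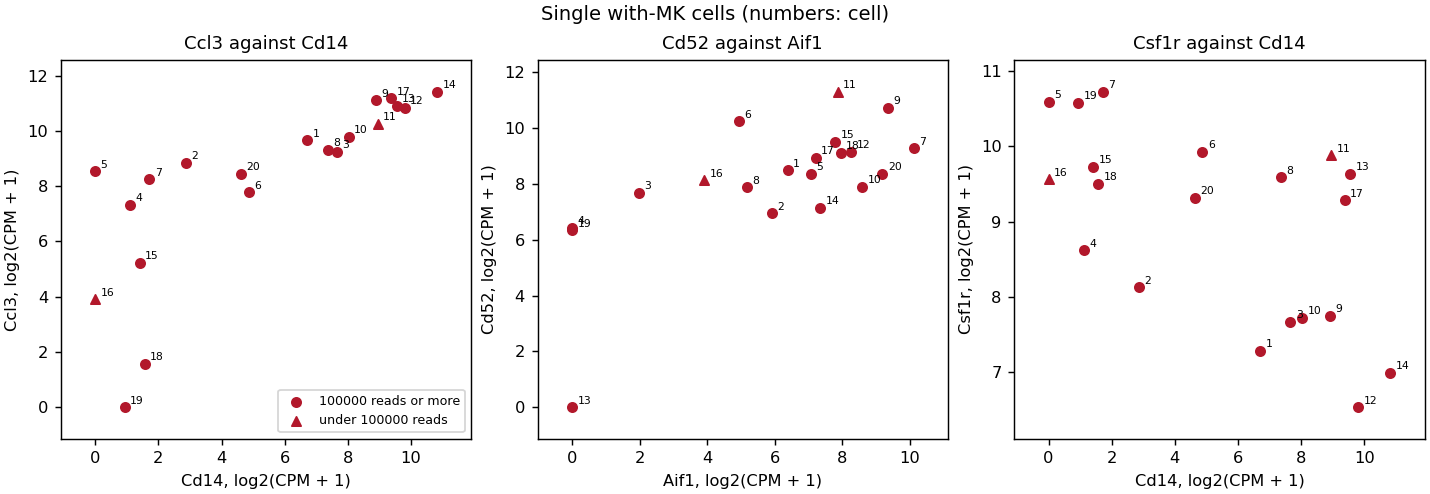
Levels, as log2(CPM + 1), of Ccl3 against Cd14, Cd52 against Aif1 and Csf1r against Cd14 in the 20 with-MK cells; each point is 1 cell with its number, and triangles are the 2 cells with under 100000 reads. The 6 cells highest in Cd14 are the 6 highest in Ccl3 (Spearman 0.90), Cd52 runs with Aif1 (0.67), and Csf1r tends to be lower where Cd14 is higher (-0.53).

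For the other 9 genes the best match among the 1328 lay between 0.64 and 0.79. The median over all genes ranked lay between -0.09 for Csf1r and 0.15 for Ptprc. Each best match, that of Cd14 included, is the highest of 1328 correlations over 20 cells. Such a search gives high values also among unrelated genes, so the genes named describe these cells only. For Ptprc it was Rpl37rt (0.79), a retrotransposed copy of a ribosomal protein gene whose few reads (8.25 CPM pooled over with-MK cells) may be shared with its parent, followed by Snrpg (0.76) and Rpl18 (0.71). For Adgre1 it was the kinase gene Stk4 (0.73), then Cox6c (0.67) and Rhoa (0.66). For Csf1r it was Lars2 (0.64), then the nuclear RNA Malat1 (0.57) and Slfn5 (0.56). Itgam was followed most closely by Zmynd8 (0.72), Pfdn5 (0.71) and Morc3 (0.71), and Itgb2 by Dctn4 (0.67), Sirt6 (0.62) and the MHC class I gene H2-D1 (0.57), whose reads may be shared with other class I genes. Cd68 was followed by Itm2b (0.68), the cysteine protease inhibitor gene Cstb (0.67) and the lipid carrier gene Apoe (0.66), and Aif1 by Impact (0.69), the proton pump gene Atp6v1e1 (0.67) and the immediate early gene Egr1 (0.63). For Cd52 the list was Diap1 (0.70), H2-DMa (0.69), which encodes a chain of the MHC class II peptide loader, and Lsm7 (0.66), and for Cd53 it was the GTPase gene Cdc42 (0.65), the catalase gene Cat (0.64) and Dctn4 (0.62). Without the shallow cells the ranks of these genes for their members lay between 1 and 12. These ranks reuse the other with-MK cells and are no separate check.

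Genes of the pathways around the set were counted by the same 10-fold limit. Of all 3588 genes with any read, 9.81% were at least 10-fold higher in with-MK cells and 8.05% at least 10-fold lower. Of 18 genes of CD45 and integrin signalling, 11 were listed, of which 8 were at least 10-fold higher and none 10-fold lower in with-MK cells. The adaptor gene Fyb had 458 CPM in with-MK cells and 0.161 CPM in without-MK cells. The phosphatase gene Ptpn6 had 653 CPM in with-MK cells, against 0.161 CPM in without-MK cells, and Fermt3, which encodes the kindlin that activates leukocyte integrins, had 261 and 0.0805 CPM. Of 18 genes of the CSF1 receptor axis, 8 were listed and 6 were at least 10-fold higher. The cytokine receptor gene Csf2rb had 925 and 0.242 CPM in with-MK and without-MK cells, and the transcription factor gene Maf 2683.5 and 37.2 CPM.

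Of 14 other integrin and ligand genes, 4 were listed, 1 at least 10-fold higher and 2 at least 10-fold lower in with-MK cells. Itga5, the fibronectin receptor chain, had 1.79 CPM in with-MK cells and 308 CPM in without-MK cells, Itgb1 90.7 and 1174 CPM, and Itgav 162 and 485 CPM. Itgb7 was the higher one, at 16.3 CPM from 3 with-MK cells, against 0.0805 CPM in without-MK cells. Of all 3588 genes, 9.81% were at least 10-fold higher and 8.05% at least 10-fold lower. Of 12 tetraspanin and partner genes, 6 were listed, with 1 at least 10-fold higher and 1 at least 10-fold lower. These were Cd37, at 20.1 CPM in with-MK cells and 0.0805 CPM in without-MK cells, and Ptgfrn, at 0 and 14.3 CPM. The 3 with the largest differences in mean log2(CPM + 1) were lower, whereas Cd53 was higher: Tspan3 had 39.6 CPM in with-MK cells and 214 CPM in without-MK cells, Tspan4 72.1 and 153.8 CPM, and Cd63 518 and 858 CPM. Of 20 genes around CD14 and Toll-like receptors, 5 were listed and 3 were at least 10-fold higher. Tlr7 had 139.5 CPM in with-MK cells, from 9 of 20 cells, and no read in without-MK cells. Cd180 had 35.1 CPM, from 7 with-MK cells, and no read in without-MK cells. The other gene past the limit was read in only 2 with-MK cells. Irak1 had 234 CPM in with-MK cells and 177.5 CPM in without-MK cells. For Irak1 the pooled level is not that of most cells: its median was 13.0 CPM in with-MK cells, of which 13 had reads and 1 reached 7725 CPM, against 123.1 CPM in without-MK cells, and its difference in mean log2(CPM + 1) was -2.05. Of 11 genes of the LAMP family and endosomes, 7 were listed and 1, Laptm5, was at least 10-fold higher, at 1420.5 and 3.71 CPM, while Npc2 had 767 and 219 CPM.

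Markers of other cell types were measured beside the set. All 8 listed of 15 stromal genes were at least 10-fold lower in with-MK cells, against 8.05% of the 3588 genes. Those with the largest differences in mean log2(CPM + 1) were Lox, Sparc and Bgn, at 0.384, 3.58 and 1.98 CPM in with-MK cells and 2610.3, 6088 and 1619 CPM in without-MK cells. Of 15 megakaryocyte and platelet genes only Pf4 was listed, at 0 to 8749 CPM with a median of 183 in with-MK cells and at 0 to 4.55 CPM in without-MK cells. Pf4 is also expressed by resident macrophages. Of 13 neutrophil genes, Mmp8, S100a8 and S100a9 were listed. Mmp8, a collagenase gene, was read in 18 of the 20 with-MK cells and had 1369.9 CPM there, against 0.483 CPM in without-MK cells, S100a8 had 133.9 and 1.77 CPM, and S100a9 had 14 reads in with-MK cells, against 5 in without-MK cells. The 3 neutrophil genes summed to 0 to 3622 CPM in with-MK cells (median 1186), against 0 to 37.7 CPM in without-MK cells. No gene of the lymphoid, dendritic, endothelial, mast cell or erythroid lists was among the genes listed, so such cells were not analysed here, and the part of other cell types in the differences was not tested.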

How the data were processed

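Single-cell RNA sequencing of 44 sorted cells was analysed from 1 deposited table. The submitters' processing notes name the mm10 build and Seurat; the sources used here do not give the aligner, counter or annotation. The authors deposited a signal that behaves like RPKM: reads × 1e+09 over library reads and over a whole number fixed per gene. That number is unrelated to exon length (Spearman -0.02 over 3472 genes), so the deposited signal compares cells within a gene only. Library reads were read off each cell's commonest value, and the smallest whole divisor per gene made all 99807 values above 0 whole reads (tolerance 0.0001). The code for these steps was run on simulated data built with the same form. That run cannot show whether the deposited table has this form. CPM is recovered reads × 1e+06 / library reads. The design assumed reads, which the table did not state. No 2 cells held identical values.

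Cells were grouped by treatment label. No count model was fitted, since each group is 1 sample. No cell was removed, cells were not clustered and no doublet caller was run. Where a group had no read, 3 reads over the group were used. The members and lists were chosen with earlier results of these data known. Named genes were the 10 members, the 3 genes most correlated with each over with-MK cells (predicted genes passed over), and of each list the 3 with the largest difference in mean log2(CPM + 1), of which 1 is not reported here, and any gene left alone in a count; Spi1 was added beside the promoter motif. Alternatives were 3 reads or 10 CPM for detection, thinning, other scalings, the deposited signal and leaving out cells. Python 3.11.15, numpy 2.4.6, pandas 2.3.3 and scipy 1.17.1 were used.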

Additional observations from a re-analysis of the deposited data

How the results depend on the processing

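The number of genes read in every with-MK cell depended on what counted as read: it was 5 at 1 read, and 2 with at least 3 reads, with at least 10 CPM, and with at least 10 CPM without the cells under 100000 reads, a setting chosen after the data were seen. The median number of genes per with-MK cell was 10 at 1 read and 9 at 10 CPM, also without those cells. The median per without-MK cell was 2 at 1 read and 0 with 3 reads, with 10 CPM, and with 10 CPM without those cells. Thinned to 310000 reads, 18 with-MK and 22 without-MK cells were left, 4 genes were read in every with-MK cell and 2 did not overlap between groups; 2 did not overlap with the listed reads as the total. All 10 genes were at least 10-fold higher under each alternative. With each cell left out in turn, the genes read in every with-MK cell ranged from 5 to 6, gaining Cd52 without cell 13 or Itgam without cell 19, and the genes without overlap from 3 to 4. Of 58 single log2 ratios under alternatives, 49 lay within 1.5-fold of the main value and none changed sign, with a range of 5.06 to 13.49; the other 9 were Ptprc, Adgre1, Aif1 and Cd52 when thinned, Itgam on the deposited signal, and Ptprc, Adgre1, Csf1r and Itgb2 without the top cell of each group. No paired analysis was possible because the replicate numbers only count cells and each group is 1 sample. In the shallow cell 16 a gene at 0 may lie at up to 41.9 CPM, so levels under that limit could not be told from 0 there. At the group's median level, cell 16 would have held 17.2 reads of Adgre1 and 4.72 of Cd14, the genes at 0 in it.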
